A study of Mus musculus with 4 samples.

Results

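Genes for leukocyte adhesion were followed in irradiated tumour-bearing lungs: the endothelial immunoglobulin-type ligands Icam1, Icam2 and Vcam1, the endothelial selectins Sele and Selp, the selectin ligand Selplg, and the integrin subunits Itgal, Itgb2 and Itga4. They were named as a group of known function, with earlier results of these data known, and are 9 of the 20640 genes in the tables. HKP1, a p53-null mouse lung adenocarcinoma line, was given to 8-week-old female C57BL/6 mice by tail vein (150000 cells), and the lungs were irradiated on days 10 to 12. The 2 groups were 4 Gy on each of 3 days, and 0 Gy, a mock treatment on the same days; both groups carried HKP1 tumours, had no labelled genetic alteration and gave lungs 24 to 48 h after the last exposure. Live lung cells of 4 mice per treatment were sorted into CD45-negative and CD45-positive cells and sequenced with 10x Genomics 3′ chemistry. This gave 1 library per dose and sort, 4 in all, so that no difference between doses has a replicate check. Intervals (95%) below cover counting error only, not the spread between mice or libraries, and no p-value is given.

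Leukocytes leave the blood in steps. Selectins on activated endothelium catch glycoproteins such as PSGL-1, the product of Selplg, and slow the cell to a roll. Integrins on the leukocyte, LFA-1 (Itgal with Itgb2) and VLA-4 (Itga4 with Itgb1), then bind ICAM and VCAM-1 on the vessel wall and hold it firmly. In lung, leukocyte entry into alveolar capillaries can proceed with little use of selectins, whereas larger vessels carry P-selectin and VCAM-1.

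The 250 bases before the start of 3 endothelial genes are shown, because NF-kB and AP-1 are classical inducers of Icam1 and Sele. No sequence was at hand for the other endothelial genes, Icam2 and Vcam1. The capitals mark GGANNNTCC, a form of the NF-kB site that reads the same on both strands, and TGACTCA, the AP-1 site, searched on both strands. Sequences are from RefSeq on GRCm38.p6, plus strand. The set of RefSeq windows at hand covered 4 of the 9 genes (Icam1, Sele, Selp and Itga4). The motifs were chosen with these sequences in view.
Icam1 upstream: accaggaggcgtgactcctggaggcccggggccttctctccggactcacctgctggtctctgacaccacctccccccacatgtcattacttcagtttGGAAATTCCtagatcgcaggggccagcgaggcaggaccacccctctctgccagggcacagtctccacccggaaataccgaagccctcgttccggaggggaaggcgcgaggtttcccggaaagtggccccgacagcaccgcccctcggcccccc
Sele upstream: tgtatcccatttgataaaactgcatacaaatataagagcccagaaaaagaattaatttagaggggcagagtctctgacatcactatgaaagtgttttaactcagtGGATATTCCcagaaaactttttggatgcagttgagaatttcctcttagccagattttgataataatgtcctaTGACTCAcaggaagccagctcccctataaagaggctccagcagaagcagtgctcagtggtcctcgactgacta
Selp upstream: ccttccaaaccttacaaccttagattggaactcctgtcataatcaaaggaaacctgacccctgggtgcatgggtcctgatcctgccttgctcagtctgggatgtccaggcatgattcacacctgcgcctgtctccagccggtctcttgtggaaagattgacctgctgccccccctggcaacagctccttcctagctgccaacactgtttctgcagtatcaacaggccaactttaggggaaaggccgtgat
They lie at chr9:21015690-21015939 (Icam1), chr1:164047984-164048233 (Sele) and chr1:164115014-164115263 (Selp). Icam1 held 1 GGANNNTCC match, at -153 from RefSeq's start, which lies upstream of the GENCODE gene start, and Sele held 1 at -145 and 1 TGACTCA at -73. Selp and Itga4 held neither in this window. Across all 32851 windows of the same length, 7.27% held GGANNNTCC and 4.46% held TGACTCA.

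The libraries held 4313 to 9608 barcodes and 12448164 to 36423571 unique molecular identifiers (UMIs, each counting 1 captured RNA molecule), and pairs of libraries shared 3 to 17 barcodes. Cells were assigned to types by marker genes, none of which is an adhesion gene described here, and the gates gave 3458 and 4638 general capillary cells at 4 Gy and 0 Gy, 293 and 450 aerocytes (the large capillary cells of gas exchange), 77 and 59 arterial cells and 43 and 53 venous cells. Types were compared where both libraries held at least 50 cells: 3 endothelial subtypes and 10 leukocyte types. Venous cells fell below this number at 4 Gy, so their values are given and not called. A gene was called where its CPM (UMIs of the gene scaled per total UMIs of the type) differed by at least 1.5-fold with an interval leaving out 1, among genes with at least 10 UMIs over both libraries. As a check of dose, Cdkn1a, the p53-induced cell cycle inhibitor, had 2293 CPM at 4 Gy and 337 CPM at 0 Gy in general capillary cells (ratio 6.80, 6.55 to 7.06).

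Endothelial adhesion genes did not move together. Icam1 rose in general capillary cells; Vcam1 was high in venous cells at 4 Gy over many cells; and the higher arterial values of Vcam1, Selp and Sele lay largely in 2 cells that also held pericyte or smooth muscle markers. Over the 3 compared subtypes, 14 of 27 pairs of gene and subtype reached 10 UMIs, with 5 called higher and 0 called lower. The share of all measured genes called higher was 7.27% in general capillary cells, 4.77% in aerocytes and 3.51% in arterial cells; the shares called lower were 4.66%, 3.03% and 3.81%.

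**Figure D1:**
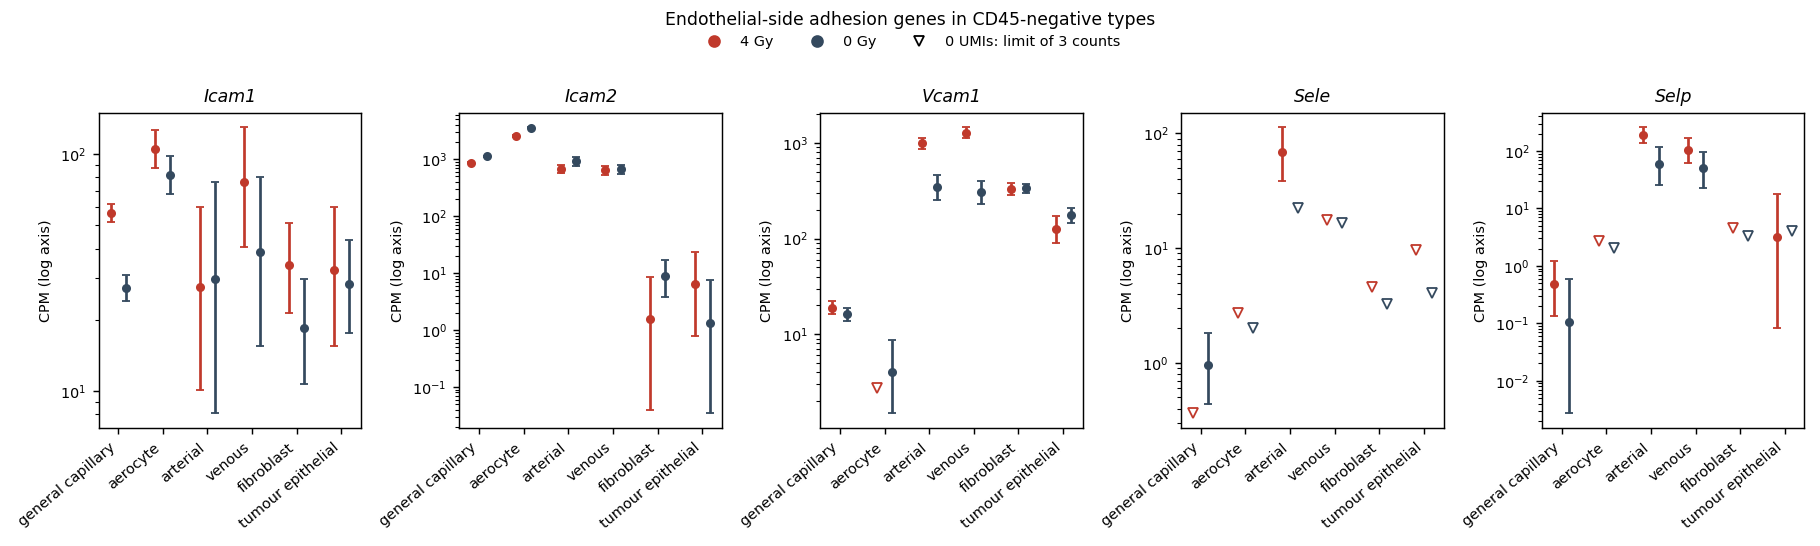
Icam1, Icam2, Vcam1, Sele and Selp in 6 CD45-negative types, as CPM of the type on a log axis, with 4 Gy left of 0 Gy. Bars are exact Poisson 95% intervals of counting error, and open triangles stand at the limit of 3 counts where no UMI was found; the intervals of the doses do not overlap for Icam1 in general capillary cells, Vcam1 in arterial and venous cells and Sele and Selp in arterial cells, each higher at 4 Gy, and for Icam2 in general capillary cells and aerocytes, lower at 4 Gy.

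Icam1 (chr9:21015985-21028817, GRCm38) encodes ICAM-1, the inducible ligand of LFA-1. General capillary cells had 467 UMIs of Icam1 at 4 Gy (56.5 CPM, 51.5 to 61.8) and 256 at 0 Gy (27.3 CPM, 24.0 to 30.8), a ratio of 2.07 (1.77 to 2.42). The counts were spread over 363 cells at 4 Gy and 214 cells at 0 Gy, with at most 6 in any 1 cell. With each cell thinned to 1000 UMIs, 5.64% of general capillary cells at 4 Gy (4.88 to 6.49) and 2.19% at 0 Gy (1.77 to 2.68) held a UMI; without thinning the shares were 10.5% and 4.61%, at median depths of 1976 and 1802 UMIs. Pericytes and smooth muscle cells, too few to compare, held no Icam1 UMI at either dose.

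General capillary cells differed between doses in Lyve1, a hyaluronan receptor gene, with 1900 CPM at 4 Gy and 723 CPM at 0 Gy, so Icam1 was also read within cells split by a Lyve1 UMI. Icam1 rose in both: 60.4 CPM at 4 Gy and 31.6 CPM at 0 Gy in cells with Lyve1 (ratio 1.91, 1.59 to 2.30), and 38.4 CPM at 4 Gy and 21.7 CPM at 0 Gy in cells without it (1.77, 1.24 to 2.50). The share of all measured genes called higher was 7.5% in cells with Lyve1 and 3.95% in cells without. Leaving out every cell with a marker UMI of platelets or of any leukocyte lineage left 169 of 3458 general capillary cells at 4 Gy. At 0 Gy it left 215 of 4638, and the ratio was 1.15, not called. With so few cells kept, this filter cannot decide the Icam1 call. The phagocyte markers among those used summed to 1427 CPM at 4 Gy and 1910 CPM at 0 Gy in all general capillary cells. Leaving out only cells with a UMI of Ptprc, the gene of CD45, or of a platelet marker gave 2.11. That narrower filter kept 3424 cells at 4 Gy and 4596 at 0 Gy. Markers of other cells were lower at 4 Gy in general capillary cells: 1583 CPM at 4 Gy and 3312 CPM at 0 Gy for 5 red cell genes, 131 CPM at 4 Gy and 213 CPM at 0 Gy for 8 fibroblast genes, and 23.3 CPM at 4 Gy and 133 CPM at 0 Gy for 8 pericyte or smooth muscle genes, none of them at 0. Without cells holding at least 2 fibroblast, pericyte or smooth muscle marker UMIs the Icam1 ratio was 2.09; the part of the red cell genes was not tested.

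Aerocytes had 105 CPM of Icam1 at 4 Gy and 81.8 CPM at 0 Gy (ratio 1.29, 0.99 to 1.67), which was not called. Arterial cells had 27.6 CPM at 4 Gy and 29.7 CPM at 0 Gy, on 6 and 4 UMIs. Venous cells had 75.9 CPM at 4 Gy and 38.8 CPM at 0 Gy, on 13 and 7 UMIs (1.96, 0.73 to 5.79). Aerocytes stood highest of the endothelial subtypes at both doses; their interval overlapped that of venous cells at both doses and that of arterial cells at 0 Gy. Whether the dose ratios of capillary cells and aerocytes differ was not tested. In leukocytes, Icam1 was called in none of the 10 compared types, with ratios from 0.44 in CD4 conventional T cells to 1.32 in gamma-delta T cells. Neutrophils had 46.8 CPM at 4 Gy and 66.1 CPM at 0 Gy, and classical monocytes had 31.4 CPM at 4 Gy and 43.8 CPM at 0 Gy; both ratio intervals include 1.

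Icam2 (chr11:106377656-106388075) encodes ICAM-2, a ligand of LFA-1 that resting endothelium carries. It was lower at 4 Gy in each compared subtype, but by less than 1.5-fold, so no call was made. Aerocytes had 2547 CPM at 4 Gy and 3564 CPM at 0 Gy (ratio 0.71, 0.68 to 0.75). General capillary cells had 872 CPM at 4 Gy and 1121 CPM at 0 Gy (0.78, 0.75 to 0.80), and arterial cells had 671 CPM at 4 Gy and 927 CPM at 0 Gy (0.72, 0.57 to 0.93). Venous cells had 637 CPM at 4 Gy and 671 CPM at 0 Gy, with a ratio interval that includes 1. The order of the endothelial levels, aerocytes above general capillary cells, held at both doses, while arterial and venous cells lay within each other's intervals at 4 Gy.

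Thinned to 1000 UMIs, 87.2% of aerocytes at 4 Gy (82.7 to 90.8) and 94.7% at 0 Gy (92.1 to 96.6) held an Icam2 UMI. In general capillary cells the shares were 56.1% at 4 Gy (54.3 to 57.8) and 66.4% at 0 Gy (65.0 to 67.8). Fibroblasts held a UMI in 0 of 49 thinned cells at 4 Gy, and the fibroblast levels were 1.55 CPM at 4 Gy and 8.71 CPM at 0 Gy, so the endothelial values stand far above that background.

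Icam2 in neutrophils was called lower, with 10.1 CPM at 4 Gy and 26.4 CPM at 0 Gy (ratio 0.38, 0.19 to 0.77) on 19 and 18 UMIs; 4.55% of genes measured in neutrophils were called lower. The ratio was 0.61 and not called after thinning. B cells had 81.5 CPM at 4 Gy and 73.0 CPM at 0 Gy, the highest of the compared leukocyte types at both doses; at 0 Gy the interval overlapped that of NK cells.

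Vcam1 (chr3:116109949-116129688) encodes VCAM-1, the ligand of VLA-4. Venous cells had 221 UMIs at 4 Gy (1291 CPM) and 55 at 0 Gy (305 CPM), a ratio of 4.23 (3.14 to 5.80). At 4 Gy 32 of 43 venous cells held a UMI, 74.4% (58.8 to 86.5), against 17 of 53 at 0 Gy, 32.1% (19.9 to 46.3). Thinned to 1000 UMIs the shares were 51.2% at 4 Gy (35.1 to 67.1) and 14.3% at 0 Gy (5.94 to 27.2), and these intervals do not overlap.

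The venous counts were uneven at 4 Gy, where 1 cell held 91 of the 221 UMIs. That cell carried 66 UMIs of arterial markers and 14 of venous markers, so its place among venous cells is uncertain. Without the top cell of each library the ratio was 3.28 (2.30 to 4.76), with 786 CPM at 4 Gy and 240.0 CPM at 0 Gy. Summed fibroblast markers were also higher in venous cells at 4 Gy, 2476 CPM against 749 CPM at 0 Gy, as were pericyte and smooth muscle markers, 590 CPM against 111 CPM. Leaving out the 2 venous cells at 4 Gy and the 5 at 0 Gy that held at least 2 such UMIs gave 1501 CPM at 4 Gy and 332 CPM at 0 Gy, a ratio of 4.52 (3.29 to 6.32). Fibroblasts had 331 CPM of Vcam1 at 4 Gy and 336 CPM at 0 Gy, and pericytes or smooth muscle cells held 0 UMIs in 13 cells at 4 Gy and 3 in 29 cells at 0 Gy.

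Arterial cells gave a different picture for the same gene. Their sum was 1001 CPM at 4 Gy and 348 CPM at 0 Gy (ratio 2.87, 2.09 to 4.03, called higher), but 29.9% of arterial cells at 4 Gy and 25.4% at 0 Gy held a UMI. After thinning the shares were 16.7% at 4 Gy (8.62 to 27.9) and 18.8% at 0 Gy (8.95 to 32.6). At 4 Gy 2 cells held 94 and 71 of the 218 UMIs, 75.7% of the total. They also held 119 and 61 UMIs of pericyte or smooth muscle markers, beside 50 and 44 of endothelial lineage markers. Without the 8 arterial cells at 4 Gy and the 2 at 0 Gy with at least 2 fibroblast, pericyte or smooth muscle marker UMIs, Vcam1 was at 263 CPM at 4 Gy and 377 CPM at 0 Gy (0.70, 0.44 to 1.10), the opposite direction and not called.

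**Figure D2:**
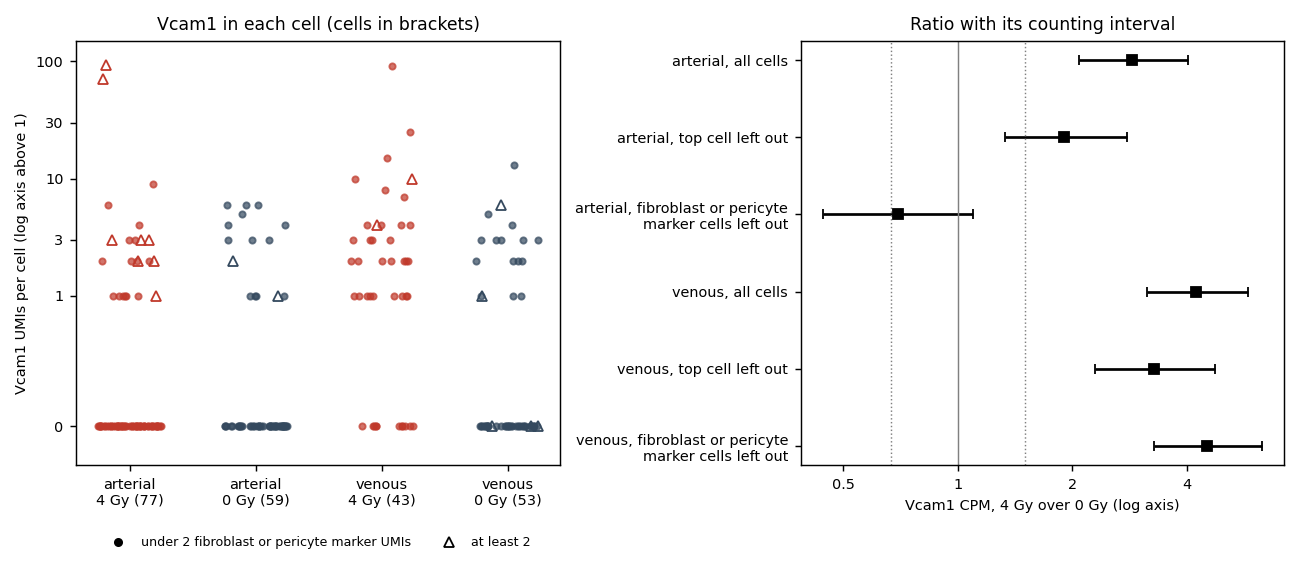
Vcam1 in single arterial and venous cells. Left, UMIs per cell (log axis above 1), with 4 Gy left of 0 Gy and triangles for cells with at least 2 fibroblast, pericyte or smooth muscle marker UMIs; right, the ratio of summed CPM, 4 Gy over 0 Gy (log axis), with its counting interval for all cells, without the top cell of each library and without the marker cells, with dotted lines at 1.5-fold. The 2 high arterial cells are triangles, and the arterial ratio moves to 0.70 without such cells while the venous ratio stays at 4.52.

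In general capillary cells Vcam1 was low, at 19.0 CPM at 4 Gy and 16.2 CPM at 0 Gy (ratio 1.17, 0.93 to 1.47), and 0.759% of thinned cells at 4 Gy and 0.613% at 0 Gy held a UMI. Aerocytes held 0 UMIs at 4 Gy and 6 at 0 Gy. Tumour epithelial cells had 127 CPM at 4 Gy and 176 CPM at 0 Gy (0.72, 0.49 to 1.04). Among leukocytes interstitial macrophages had 14.5 CPM at 4 Gy and 23.6 CPM at 0 Gy (0.61, 0.36 to 1.07), and NK cells held no Vcam1 UMI at either dose. Neutrophils were called lower on 1 UMI at 4 Gy and 10 at 0 Gy (ratio 0.0362, 0.000835 to 0.255), but 9 of the 10 lay in 1 cell, and without the top cells no call was made.

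Sele and Selp, neighbours on chromosome 1 (chr1:164048234-164057677 and chr1:164115264-164150026), encode E-selectin, which activated endothelium makes, and P-selectin, which endothelium and platelets store. Both were scarce. Arterial cells had 42 Selp UMIs at 4 Gy (193 CPM) and 8 at 0 Gy (59.3 CPM), a ratio of 3.25 (1.51 to 8.02), and 15 Sele UMIs (68.9 CPM) at 4 Gy against 0 at 0 Gy, a ratio whose interval starts at 2.22. Both were called higher.

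A single arterial cell held 29 of the 42 Selp UMIs and 12 of the 15 Sele UMIs; it was the cell with 71 Vcam1 UMIs and 61 pericyte or smooth muscle marker UMIs. The remaining 3 Sele UMIs lay in the cell with 94 Vcam1 UMIs. The number of arterial cells with a Selp UMI was 7 at each dose. Without the marker cells Selp was at 47.2 CPM at 4 Gy and 68.6 CPM at 0 Gy (ratio 0.69, 0.21 to 2.17), and no arterial cell at either dose held a Sele UMI. Platelet markers were at 0 in arterial cells of both doses. Immediate early and heat shock genes, 6 of 9 measured, were also called higher in arterial cells, among them Hspa1b with 59 UMIs at 4 Gy and 2 at 0 Gy (ratio 18.3, 4.84 to 154); their part in the selectin values was not tested.

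Venous cells had 18 Selp UMIs in 10 cells at 4 Gy (105 CPM) and 9 in 6 cells at 0 Gy (49.9 CPM), a ratio of 2.11 (0.90 to 5.32), and held no Sele UMI. Platelet markers summed to 17.5 CPM at 4 Gy and were at 0 at 0 Gy there. General capillary cells held 0 Sele UMIs at 4 Gy and 9 at 0 Gy, of which 7 lay in 1 cell. In interstitial macrophages Selp was called higher, with 13.3 CPM at 4 Gy and 3.93 CPM at 0 Gy (ratio 3.38, 1.21 to 13.1), where 4.4% of genes were called higher. Platelet markers summed to 134 CPM in those cells at 4 Gy and 95.3 CPM at 0 Gy, and fewer than 10 Selp UMIs were left when cells with platelet markers were removed.

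Selplg, Itgal, Itgb2 and Itga4 were measured in each of the 10 compared leukocyte types, 40 pairs of gene and type. Of these 1 was called higher and 0 lower; 9 had an interval above 1 and 6 an interval below 1, all short of 1.5-fold except the called pair. With the other adhesion genes, over the 10 compared leukocyte types 66 of 90 pairs of gene and type reached 10 UMIs, of which 2 were called higher and 2 lower. Of all measured pairs of gene and type, 4.39% were called higher and 3.23% lower, so the calls came about as often as among all genes. The 3 calls outside the ligand and integrin genes were those of Icam2 and Vcam1 in neutrophils and Selp in interstitial macrophages, described above.

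Selplg (chr5:113818536-113832644) encodes PSGL-1, the main ligand of P-selectin on leukocytes. Neutrophils had 1021 CPM at 4 Gy and 984 CPM at 0 Gy (ratio 1.04, 0.95 to 1.13), the highest level of the compared types. NK cells followed with 866 CPM at 4 Gy and 901 CPM at 0 Gy (0.96, 0.89 to 1.04), with an interval that overlapped that of neutrophils at 0 Gy. B cells were lowest, at 83.7 CPM at 4 Gy and 95.2 CPM at 0 Gy. None of the 10 types was called. The farthest from 1 was CD4 conventional T cells, with 333 CPM at 4 Gy and 447 CPM at 0 Gy (0.74, 0.65 to 0.85), and 2 further types had intervals below 1, B and CD8 T cells; conventional dendritic 2 cells had 326 CPM at 4 Gy and 251 CPM at 0 Gy (1.30, 1.05 to 1.60).

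Selplg was also called higher in general capillary cells, on 38 UMIs at 4 Gy (4.60 CPM) and 12 at 0 Gy (1.28 CPM), a ratio of 3.59 (1.84 to 7.55). These counts lay in 4 of 3458 cells at 4 Gy and 5 of 4638 cells at 0 Gy, 0.116% and 0.108%. Fewer than 10 UMIs were left once cells with a Ptprc or platelet marker UMI were removed. Aerocytes, arterial and venous cells held no Selplg UMI.

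**Figure D3:**
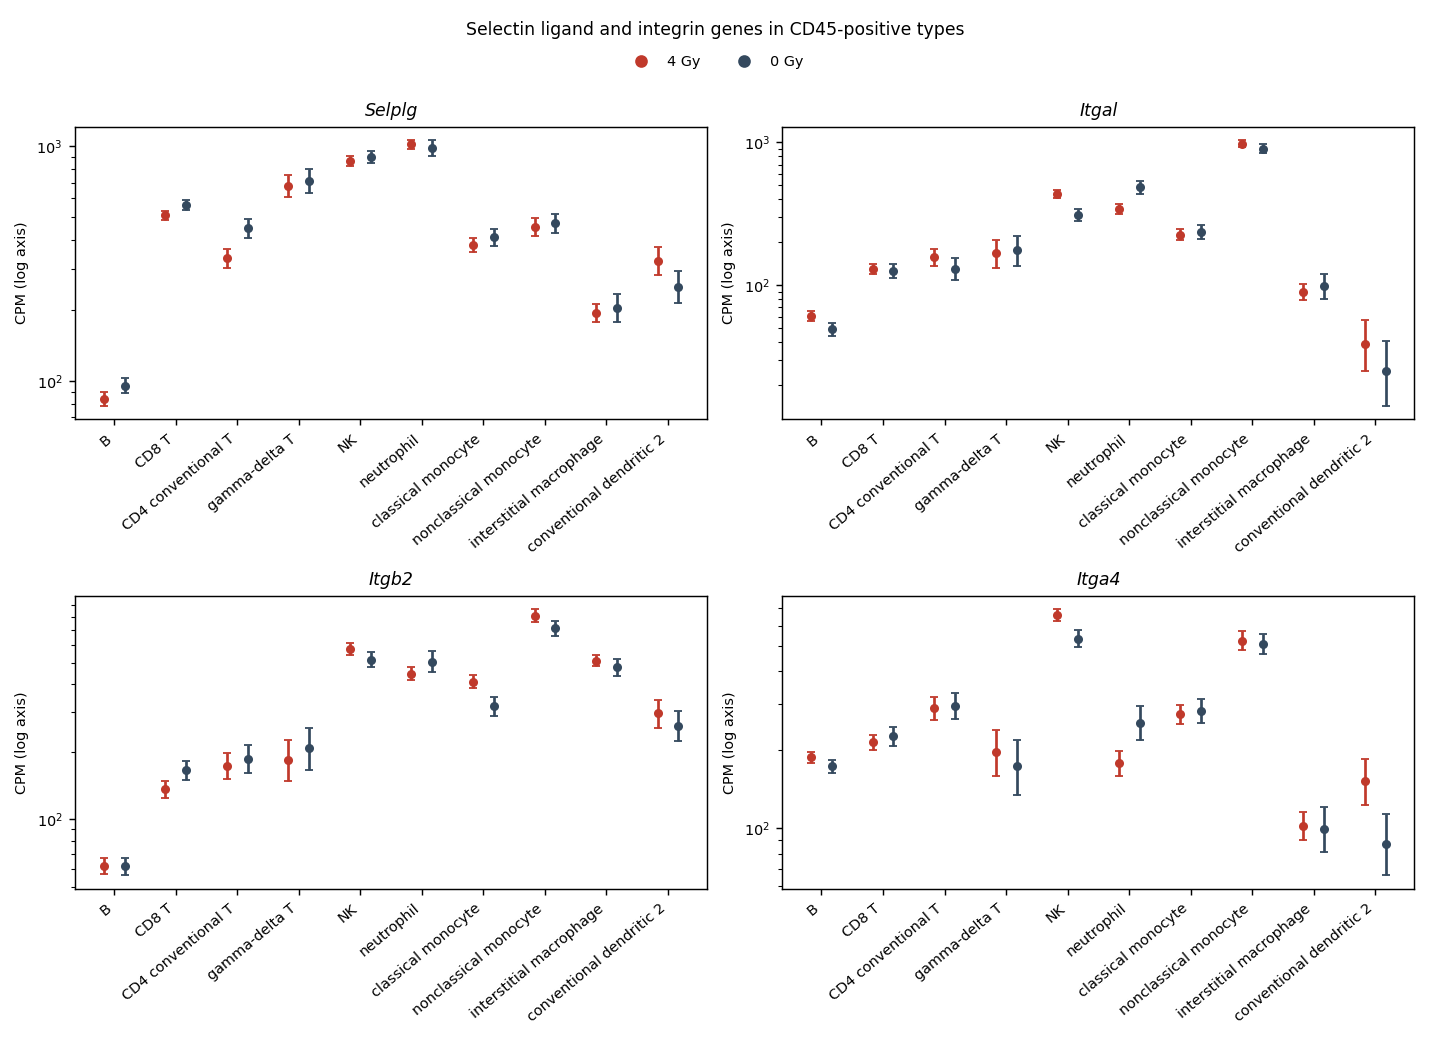
Selplg, Itgal, Itgb2 and Itga4 in the 10 compared CD45-positive types, as CPM of the type on a log axis, with 4 Gy left of 0 Gy and exact Poisson 95% intervals of counting error. The levels of each gene differ far more between types than between doses; intervals of the doses do not overlap for Selplg in CD4 conventional and CD8 T cells, Itgal in B cells, NK cells and neutrophils, Itgb2 in CD8 T cells and classical monocytes, and Itga4 in NK cells, neutrophils and conventional dendritic 2 cells.

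Itgal (chr7:127296260-127335138) encodes the alpha subunit of LFA-1, which binds ICAM-1 and ICAM-2. Nonclassical monocytes, which patrol the vessel wall, had the highest level, 982 CPM at 4 Gy and 905 CPM at 0 Gy (ratio 1.08, 0.99 to 1.19). NK cells had 437 CPM at 4 Gy and 309.9 CPM at 0 Gy (1.41, 1.25 to 1.59), and neutrophils had 344 CPM at 4 Gy and 484 CPM at 0 Gy (0.71, 0.62 to 0.81). NK cells and neutrophils thus lay on opposite sides of 1, both short of the 1.5-fold needed for a call. Their order turned: neutrophils stood above NK cells at 0 Gy and below them at 4 Gy. Thinned to 1000 UMIs, 35.7% of NK cells at 4 Gy and 29.8% at 0 Gy held an Itgal UMI. The shares of neutrophils were 25.8% at 4 Gy and 33.8% at 0 Gy.

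Itgb2 (chr10:77530252-77565708) encodes the beta subunit that Itgal shares with the other leukocyte-specific integrins. It was called in no compared type. Classical monocytes had 411 CPM at 4 Gy and 320 CPM at 0 Gy (ratio 1.29, 1.14 to 1.45), and nonclassical monocytes, again the highest, had 811 CPM at 4 Gy and 710.4 CPM at 0 Gy (1.14, 1.03 to 1.26). CD8 T cells had 136 CPM at 4 Gy and 166 CPM at 0 Gy (0.82, 0.72 to 0.93), and neutrophils had 447 CPM at 4 Gy and 505 CPM at 0 Gy (0.89, 0.78 to 1.01).

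Itga4 (chr2:79255426-79333123) encodes the alpha subunit of VLA-4, the receptor of VCAM-1. It was called higher in conventional dendritic 2 cells, with 151 CPM at 4 Gy and 87.4 CPM at 0 Gy (ratio 1.73, 1.24 to 2.45), on 98 UMIs in 44 of 70 cells at 4 Gy and 56 UMIs in 37 of 57 cells at 0 Gy; 5.67% of genes measured there were called higher. After thinning the ratio was 1.46 and not called. NK cells had the highest level, 657 CPM at 4 Gy and 533 CPM at 0 Gy (1.23, 1.12 to 1.35), and at 0 Gy their interval overlapped that of nonclassical monocytes. Neutrophils had 178 CPM at 4 Gy and 254 CPM at 0 Gy (0.70, 0.58 to 0.85). B cells, the most numerous leukocytes, had 187 CPM at 4 Gy and 173 CPM at 0 Gy (1.08, 1.01 to 1.16).

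Lists of related genes were read in general capillary cells, where 7.27% of all measured genes were called higher and 4.66% lower. Of the 13 measured genes of endothelial junctions and transmigration 1 was called higher and 0 lower, with a median log2 ratio of -0.09 against 0.03 over all measured genes; the gene was Ezr, which encodes the cytoskeletal linker ezrin (ratio 1.59, 1.37 to 1.84). Of 13 selectin ligand and glycosyltransferase genes 2 were higher and 1 lower (median -0.05). Emcn, the gene of the anti-adhesive sialomucin endomucin, fell to 171 CPM at 4 Gy, against 283 CPM at 0 Gy (0.60, 0.57 to 0.64), and Chst2, a sulfotransferase gene for selectin ligands, had a ratio of 2.41 (1.47 to 4.04) on 53 UMIs at 4 Gy and 25 at 0 Gy. None of 10 other leukocyte integrin genes was called (median -0.05), and 1 of 12 integrin activation genes was higher (median 0.05), Cytip at 3.20 (1.56 to 7.05).

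The NF-kB inducible list, of genes other than the adhesion members, had 0 of 11 measured genes higher and 1 lower (median -0.01). The 1 was Ccl2, a monocyte chemokine gene, with 37 UMIs at 4 Gy and 130 at 0 Gy (ratio 0.32, 0.22 to 0.47), and it went in opposite directions within the Lyve1 split: a ratio of 3.29 on 34 UMIs at 4 Gy and 8 at 0 Gy in cells with Lyve1, and 0.0692 (0.0141 to 0.207) in cells without. By contrast 8 of 8 p53 target genes were higher (median 2.54), 7 of 9 clock genes higher and 1 lower (median 2.01), and 6 of 11 immediate early and dissociation genes higher (median 0.49). These last lists and Icam1 were higher in the summed counts of general capillary cells, and no link within single cells was tested. In aerocytes, where Icam1 was not called, 8 of 8 p53, 7 of 9 clock and 4 of 9 immediate early genes were called higher. In arterial cells, where Icam1 was also not called, the counts were 5 of 5, 2 of 6 and 6 of 9. The part of these lists in the Icam1 value was not tested. The lists were chosen with earlier results of these data known, so their counts are a description.

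**Figure D4:**
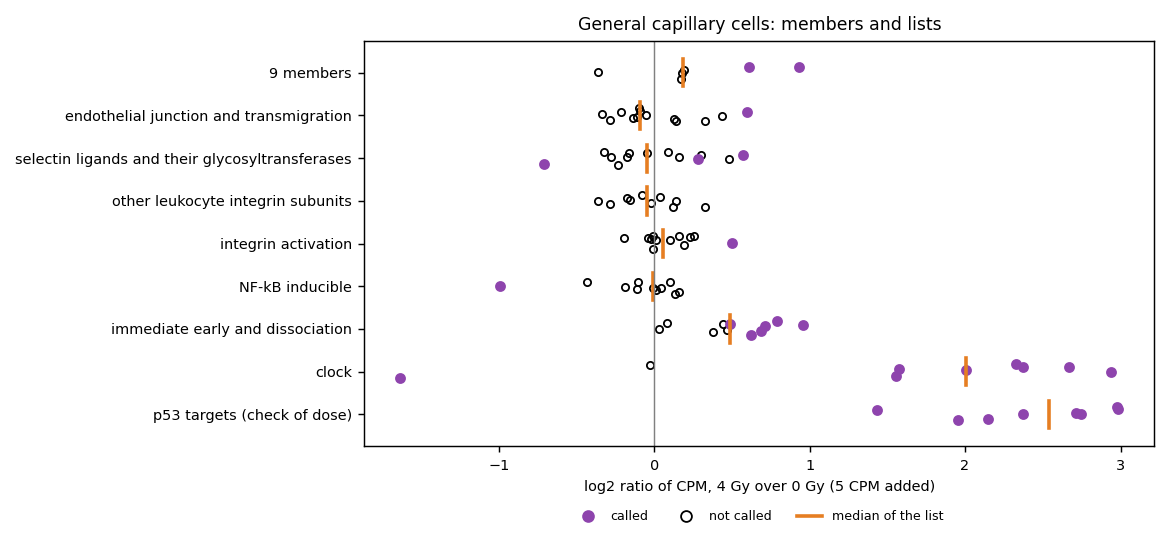
Log2 ratio of CPM, 4 Gy over 0 Gy with 5 CPM added, of every measured gene in general capillary cells, for the adhesion genes (6 of 9 measured) and 8 lists. Filled points were called, open points were not, and bars mark list medians: the adhesion lists centre near 0, the p53 list at 2.54 and the clock list at 2.01.

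Across the 33 profiles of gated types and doses with at least 50 cells, the genes whose levels ran most like the adhesion genes were read among 12327 genes. Icam2 ran most like Pecam1, the gene of the endothelial junction protein PECAM-1 (Pearson r of 0.96). Selplg ran most like Arhgap9 (0.99), Itgb2 like Cyth4 (0.98), Itgal like Stk10 (0.96), Itga4 like A130071D04Rik (0.99), Vcam1 like Htra1 (0.95), Selp like Tmem255b (0.91) and Sele like Btnl9 (0.98). Icam1 had the weakest best match, Rela, a subunit gene of NF-kB, with 0.77. Profiles share libraries and lineages, and those of Sele and Selp rest on few UMIs, so these correlations describe the types alone. The arterial profile at 4 Gy includes the 2 cells described above, with all 15 of its Sele UMIs and 75.7% of its Vcam1 UMIs. Likeness was not read without these cells.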

How the data were processed

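Single-cell RNA was measured in 4 libraries, grouped by dose and sort from the labels. The authors deposited log2 values per cell and gene. The submitters' processing notes name STAR, Partek, Seurat and mm10 without roles or versions, and filters are not given in the sources used here. Tested on the tables, the deposited values were log2(CPM + 1): within 0.02, over 99.999% were whole multiples of each cell's smallest step, so UMIs were recovered. The members and lists were chosen with earlier results of these data known.

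Scrublet, run in scanpy 1.11.5 on each library by itself with an expected rate of 0.8% per 1000 cells, scored doublets; in 3 libraries its threshold marked under 0.5% of barcodes, and the top-scoring barcodes were removed there until the expected rate was reached. This removed 149 and 608 barcodes at 4 Gy and 286 and 235 at 0 Gy, CD45-negative first, and kept 4164, 9000, 5693 and 5180. A cell joined a lineage with at least 2 distinct markers carrying a UMI and more than of any other lineage, and then the type with the highest share of its markers; regulatory T cells needed a Foxp3 UMI, a detail chosen after the files were seen. The names rest on markers alone.

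UMIs were summed per type and library and scaled to CPM, so deeper cells weigh more. Intervals are exact at 95%: conditional binomial for ratios, Poisson for levels and Clopper-Pearson for shares. They cover counting error only, and with 1 library per group no test was possible. Median list ratios used 5 CPM added. Genes named from lists were the called ones with the largest ratios and at least 20 UMIs, up to 4 a list; of the p53, clock and immediate early lists only single genes are named. Likeness used log2(CPM + 10) among genes reaching 20 CPM. The ratio code was checked on simulated counts. Gene positions are from GENCODE on GRCm38. Python 3.11.15, numpy 2.4.6, scipy 1.17.1 and pandas 2.3.3 were used. Cd99, Madcam1 and Glycam1 were not analysed here.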

Additional observations from a re-analysis of the deposited data

How the results depend on the processing

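No paired analysis was possible because each dose and sort has 1 library. Of the 5 calls higher in endothelial subtypes 0 were left when cells with any platelet or leukocyte marker UMI were left out. That filter left 3 arterial cells at 4 Gy and 3 at 0 Gy, under the 50 set for comparison. It therefore could not decide the 3 arterial calls. In general capillary cells it left 169 of 3458 cells at 4 Gy and 215 of 4638 at 0 Gy. It therefore does not decide the 2 calls there either. Of the 5, 2 were left after thinning cells to 1000 UMIs and 3 without the cell with the most UMIs of the gene. Without cells holding at least 2 fibroblast, pericyte or smooth muscle marker UMIs 2 were left. Calls lower numbered 1 with the mean over cells, against 0. No interval was computed for the mean over cells, so its calls here rest on the 1.5-fold limit alone. Its counts are therefore not like the others. Without the fibroblast, pericyte or smooth muscle marker cells the arterial ratios, 4 Gy over 0 Gy, moved below 1. They were 0.70 (0.44 to 1.10) for Vcam1 and 0.69 (0.21 to 2.17) for Selp, against 2.87 and 3.25 in all arterial cells. Both intervals without those cells include 1. Without only the top Vcam1 cell of each library, arterial Vcam1 was at 1.90 (1.33 to 2.78), with the cell of 71 UMIs kept. Of the 2 calls higher in leukocyte types 0 were left without platelet and other-sort marker cells. That filter left 20 interstitial macrophages and 25 conventional dendritic 2 cells at 0 Gy, also under 50 cells. Of the 2, 1 was left when only cells with platelet UMIs or at least 2 endothelial UMIs were left out. With at least 50 UMIs 1 was left, while the mean over cells gave 6. The 2 calls lower became 4 without platelet and other-sort marker cells, 0 with at least 50 UMIs, 9 with the mean over cells and 1 without the top cell. Beyond fewer cells or genes per filter and the looser rule of the mean over cells, the cause of these changes was not tested. Icam1 in general capillary cells stayed called under every alternative but the platelet and leukocyte marker filter (1.15), with ratios from 1.77 to 2.63 otherwise. Vcam1 in venous cells ranged from 3.28 to 6.08. With 50 CPM added, the list medians in general capillary cells were 1.28 for p53 targets, 0.17 for immediate early and dissociation genes and 0.86 for clock genes. Sele in arterial cells has no ratio, as it had 0 UMIs at 0 Gy. The top-cell filter, the narrower marker filters and the joint arterial and venous value (Vcam1 3.49, 2.81 to 4.37) were chosen after seeing the data. The joint value's 439 Vcam1 UMIs at 4 Gy include the arterial cells with 94 and 71 and the venous cell with 91. Gates on few UMIs, 43 to 77 arterial and venous cells, and 1 library per dose limit what can be said of the larger vessels and of both selectins; a difference between doses cannot be told apart from one between libraries.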
